A study of Homo sapiens with 14 samples.

Results

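Ubiquitin-specific proteases (USP) are cysteine proteases that cut ubiquitin off proteins and form the most numerous family of deubiquitinases. Ubiquitin chains mark proteins for the proteasome, for endosomal sorting or for a change in activity, so each USP edits the fate of its own set of substrates: histones, p53 and its ligase MDM2, receptors, and factors of DNA repair. Several members work only with a partner, such as the WD40 protein WDR48 for USP1, USP12 and USP46, or the SAGA coactivator complex for USP22.

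The USP genes were taken as genes of the platform annotation with the symbol USP, a number and at most 1 further letter. This gave 45 genes of 19775 with a probe set of their own, each read by whichever of its own probe sets was brightest on average across the 14 arrays, and 39 of them passed the filter on dim genes (a log2 value of at least 5 on at least 3 arrays) that left 10344 genes tested. A further symbol, USP15, was listed only on probe sets shared with another gene and has no value here. The 45 genes had 128 probe sets of their own, of which 84 passed the filter.

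The cells were HEK293, an adenovirus-transformed human embryonic kidney line, carrying a stable plasmid under G418 selection in every group. The 4 HOXD9 lines expressed HA-tagged HOXD9 and were set against 3 HA vector cultures, and the 4 HOXD13 lines expressed V5-tagged HOXD13 and were set against 3 V5 vector cultures. Each set of HOX lines held a mixed population, called mix, and clones a, b and c picked out of it, so the lines of a set share an origin and each clone is a single clonal line. Both HOX genes encode homeodomain proteins that pattern the limb and the urogenital tract, and the comparison asks which transcripts differ when either is overexpressed. The labels do not describe how the biological replicates of a vector were kept apart. A p-value therefore reflects the scatter of these cultures, some of it perhaps technical.

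The HOXD9 probe set that read highest in the HOXD9 lines averaged 6.99 there and 2.73 in HA vectors (log2). The HOXD13 probe set that read highest in the HOXD13 lines averaged 12.43 there and 6.93 in V5 vectors. The lowest lines were at 6.65 and 12.24. Another HOXD13 probe set averaged 8.36 in the HOXD13 lines and 3.31 in V5 vectors. A further HOXD13 probe set, high in all groups, averaged 9.92 and 8.94 (adjusted p = 0.0474 by limma), with its lowest HOXD13 line at 8.87. The other HOXD9 probe set averaged 4.40 in the HOXD9 lines and 4.22 in HA vectors (adjusted p = 0.653 by limma). Of the HEK293 markers looked at, VIM, KRT8, KRT18 and NEFL lay at or above 9.80 on every array, while NEFM stayed at or below 2.42 and PAX2 at or below 4.89. Markers of immune, endothelial and squamous cells lay at or below 2.66. Of 4 fibroblast markers COL1A1 ran from 5.30 to 8.12 and the others stayed at or below 3.65. Values of the HA set and of the V5 set were normalized apart, so no level is compared between the sets. The difference between the 3 prime and 5 prime ACTB control probe sets, a sign of RNA integrity and labelling, ran from 2.19 to 2.37 in the vectors, was 1.70 in HOXD9 clone a and 2.10 in HOXD9 clone c, lay at 1.82 in HOXD13 clone b, 2.01 in HOXD13 clone a and 2.13 in the HOXD13 mix, and reached 2.80 in HOXD13 clone c. In the HA vectors alone it ran from 2.29 to 2.37, with HOXD9 clone b inside that range at 2.35 and the HOXD9 mix just below it at 2.26. The SD of the shifts from the vector mean over all genes tested was 0.53 in HOXD9 clone a and 0.71 in clone c, against 0.24 in the mix and 0.20 in clone b, and from 0.45 to 0.63 in the HOXD13 lines. These HOXD9 clones and HOXD13 clone c, with the highest ACTB difference, are the 3 arrays left out together below. The SD did not single out HOXD13 clone c, at 0.46, and was highest in HOXD13 clone b, at 0.63. Leaving out the 3 arrays keeps only the mix and clone b of HOXD9.

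Of the tested USP genes 4 were lower in HOXD13 lines than in V5 vectors and 1 was higher. USP28, USP11, USP39 and USP22 fell to between 0.622-fold and 0.751-fold of the V5 vector level, and USP42 rose 1.49-fold. These 5 of 39 genes are 12.8%, where 10.6% of all genes tested were called. By direction they are 10.3% lower and 2.56% higher, against 7.76% and 2.88% of all genes, so the share of called USP genes was near that of all genes. At an unadjusted p under 0.05 there were 9 USP genes (23.1%, against 27% of all genes). Without the 3 arrays 25 USP genes were called (64.1%, against 64.8% of all genes). The arrays read RNA pooled over many cells, so fewer cells with a transcript and less of it per cell cannot be told apart. The median log2 fold change was -0.18 over the 39 USP genes and -0.03 over all genes tested. The USP median was -0.12 without HOXD13 clone b and -0.10 with the length trend removed. In the fit to all arrays 24 USP genes had a value below 0 (61.5%, against 54.3% of all genes).

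The sequences of 250 bases upstream of the RefSeq start (GRCh38.p14) are shown for USP11, USP22 and USP28, the called genes with a single start in the promoter table, to show what lies in front of genes that fell. Capitals mark the motifs searched on both strands.
USP11: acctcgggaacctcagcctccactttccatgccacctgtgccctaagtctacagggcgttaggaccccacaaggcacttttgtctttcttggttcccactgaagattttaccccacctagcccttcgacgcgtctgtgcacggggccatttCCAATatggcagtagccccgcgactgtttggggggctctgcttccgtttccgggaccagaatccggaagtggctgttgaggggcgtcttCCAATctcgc
USP22: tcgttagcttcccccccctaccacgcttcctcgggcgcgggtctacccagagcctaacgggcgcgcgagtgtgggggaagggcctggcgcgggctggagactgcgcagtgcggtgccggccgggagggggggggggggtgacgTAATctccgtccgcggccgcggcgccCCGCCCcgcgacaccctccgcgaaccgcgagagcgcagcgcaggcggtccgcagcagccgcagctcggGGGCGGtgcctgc
USP28: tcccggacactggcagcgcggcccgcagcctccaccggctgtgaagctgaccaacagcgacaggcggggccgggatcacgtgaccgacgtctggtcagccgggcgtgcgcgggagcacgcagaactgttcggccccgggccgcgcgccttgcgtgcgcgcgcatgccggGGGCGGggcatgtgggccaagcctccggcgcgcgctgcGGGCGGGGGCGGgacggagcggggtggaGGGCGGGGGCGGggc
They lie at chrX:47232759-47233008 (plus strand), chr17:21043012-21043261 (minus strand) and chr11:113875573-113875822 (minus strand), and hold 57.6%, 76.8% and 78.4% G and C. The motifs were CAATAAA, a sequence bound by posterior HOX proteins, TAAT, the core of many homeodomain sites, CCAAT, the box of that name, and GGGCGG, the GC box, and CCAAT and CAATAAA can share the letters CAAT. The USP11 window held 2 CCAAT boxes, the USP22 window 1 TAAT and 2 GC boxes, and the USP28 window 5 GC boxes. Of 35116 windows of the same length in the table, 3.66% held CAATAAA, 47.44% TAAT, 32.01% CCAAT and 42.64% GGGCGG. Of the 46 windows of 33 matched USP genes, 0 held CAATAAA, 17 TAAT (36.96%), 12 CCAAT (26.09%) and 32 GGGCGG (69.57%), with a median G and C content of 68.8% against 58.0% over all windows. A match is a match of letters and says nothing of binding.

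USP11 acts in TGF-beta signalling and in repair by homologous recombination. It read 11.70, 11.55, 11.70 and 11.80 (log2) in the mix and then in the clones a, b and c of HOXD13, with 12.20, 12.20 and 12.29 in the V5 vectors. All 4 lines lay below the vectors, and the groups did not overlap. The fall was by 0.54 (SE 0.11, 0.686-fold, adjusted p = 0.00967 by limma). Of the settings and left-out arrays tried, only leaving out V5 vector 3 ended the call (adjusted p = 0.0597).

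USP22 is the histone H2A and H2B deubiquitinase of SAGA. It read 11.70, 11.76, 11.73 and 11.87 in the HOXD13 lines, against 12.18, 12.19 and 12.18 in the V5 vectors. The vectors were nearly equal, and all 4 lines lay below them. USP22 fell by 0.41 (SE 0.09, 0.751-fold, adjusted p = 0.0140 by limma), a call that ended without any 1 of the V5 vectors (adjusted p up to 0.0683). USP27X and USP51, relatives of USP22 that can take its place beside the same SAGA adaptors, had log2 fold changes of 0.18 (adjusted p = 0.538) and -0.44 (adjusted p = 0.0610).

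USP39 is a spliceosome protein with a USP fold that lacks protease activity. It read 9.70, 9.74, 9.80 and 9.81 in the HOXD13 lines, against 10.18, 10.17 and 10.22 in the V5 vectors. The 4 lines were close to each other and all below the vectors. It fell by 0.43 (SE 0.11, 0.744-fold, adjusted p = 0.0290 by limma). The call ended without any 1 V5 vector, without the mix, clone a or clone b, and with the trend in gene length removed (adjusted p up to 0.120).

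USP28 stabilises MYC and works with 53BP1 and p53. It read 7.59, 7.60, 7.37 and 8.19 in the HOXD13 lines, against 8.24, 8.46 and 8.42 in the V5 vectors. Clone c, at 8.19, lay just under the lowest vector, and the other lines lay well under it. USP28 fell by 0.69 (SE 0.18, 0.622-fold, adjusted p = 0.0294 by limma), and its other passing probe sets read -0.83 (adjusted p = 0.00577 over probe sets) and -0.49 (adjusted p = 0.119). The call ended without any 1 V5 vector, without the mix, clone a or clone b, and with no filter or only the 7 arrays of the V5 set (adjusted p up to 0.120).

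USP42, a p53 deubiquitinase, was the 1 called rise. It read 10.23, 10.41, 10.49 and 9.70 in the HOXD13 lines, against 9.55, 9.69 and 9.64 in the V5 vectors. The mix and clones a and b were clearly higher, and clone c barely exceeded the highest vector, with a shift of 0.07. USP42 rose by 0.58 (SE 0.15, 1.49-fold, adjusted p = 0.0325 by limma), and a second probe set read 0.61 (adjusted p = 0.0743). The call ended without any 1 HA or V5 vector, without the mix, clone a or clone b, and with no filter or only the 7 arrays of the V5 set (adjusted p up to 0.128).

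**Figure D1:**
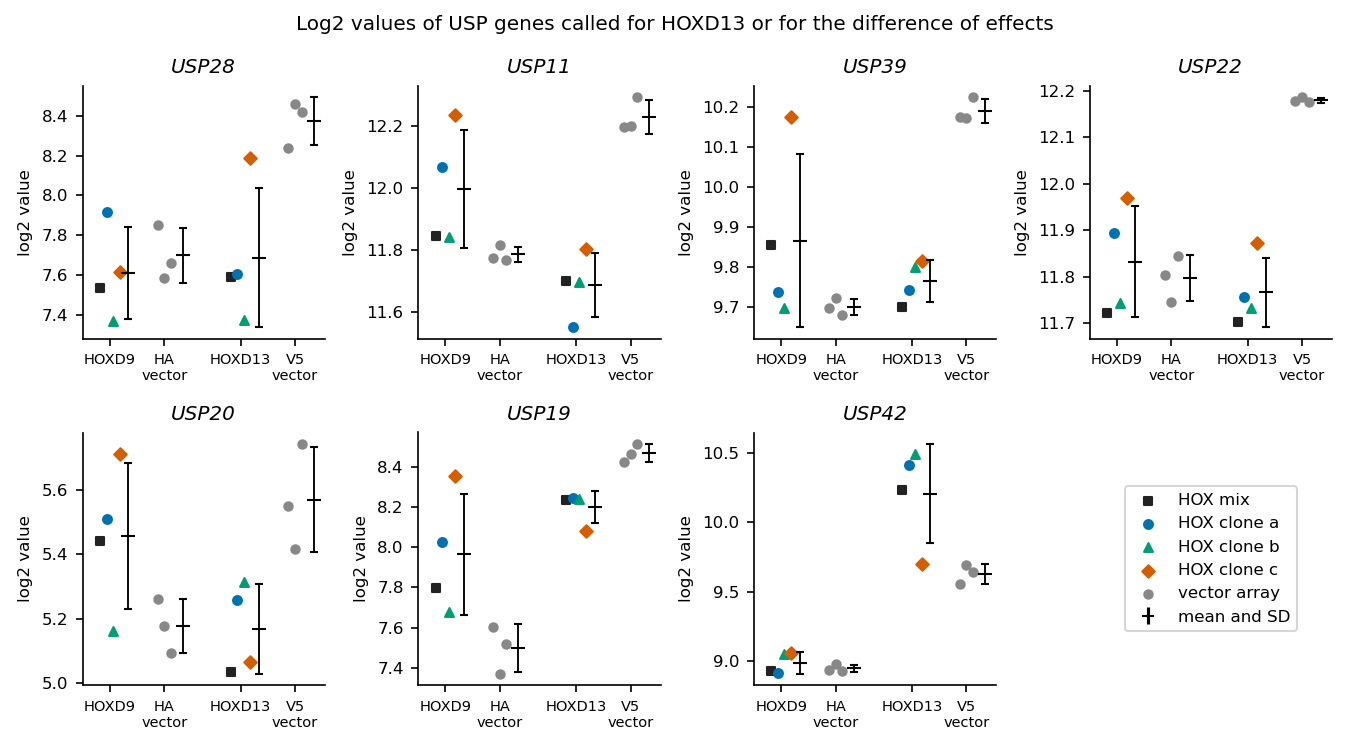
Log2 values on every array of the 7 USP genes called for HOXD13 or for the difference of the effects, with the mean and SD of each group beside the points (y axes differ and do not start at 0). The HOXD13 lines lie below all V5 vectors in USP28, USP11, USP39, USP22, USP20 and USP19, and above them in USP42.

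USP4 and USP54 had HOXD13 values like those of USP42 in 3 lines and did not pass the test. USP4, which acts on TGF-beta receptor I and on splicing factors, read 9.48, 9.63, 9.87 and 8.80 in the HOXD13 lines, against 8.93, 8.97 and 8.93 in the V5 vectors (log2 fold change 0.50, SE 0.23, adjusted p = 0.173). USP54, a poorly known member, read 7.54, 7.79, 7.73 and 6.80, against 7.04, 6.84 and 6.94 in the V5 vectors (0.53, SE 0.20, adjusted p = 0.111). In both genes the mix and clones a and b lay above all vectors and clone c below all of them. Without clone c the log2 fold changes were 0.72 for USP4 and 0.75 for USP54, and both passed, where 35.8% of all genes tested did and 28.2% of the USP genes.

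The other HOXD13 values near the threshold were below 0. USP20, which with its relative USP33 acts on HIF1A and on beta-adrenergic receptor recycling, read 5.04, 5.26, 5.31 and 5.07, against 5.55, 5.42 and 5.74 in V5 vectors (-0.40, SE 0.13, adjusted p = 0.0743). USP51 read 4.89, 4.92, 4.73 and 5.30, against 5.52, 5.33 and 5.35 in V5 vectors, which are dim values. It passed the filter only through the V5 vectors and HOXD13 clone c, so its high vectors helped bring it into the test. All lines of both genes lay under the vectors.

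Counted by role, the groups held few genes each, and their counts are given as a description beside the 10.6% of all genes called with HOXD13 (2.88% higher and 7.76% lower). Of 8 tested genes of DNA damage and the p53 pathway 1 rose (USP42), 1 fell (USP28) and 6 did not pass, with a median log2 fold change of -0.07. The 6 include USP7, the main deubiquitinase of MDM2, at 0.04 (adjusted p = 0.860) and USP1, which acts on FANCD2 and PCNA, at 0.09 (adjusted p = 0.884). Of 9 genes of endosomes, receptors and signalling 1 fell (USP11) and 8 did not pass (median -0.21). Of 7 histone and chromatin genes 1 fell (USP22) and 6 did not pass (median -0.25), and of 3 genes of nucleolus, splicing and cell cycle 1 fell (USP39; median -0.19).

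In the remaining role groups 0 of 12 tested genes were called with HOXD13, too few genes to read against the 10.6% of all genes. The median was -0.22 over the 3 genes of innate immunity, with USP18, the ISG15 protease, at -0.22 (adjusted p = 0.372). It was 0.18 over 5 less studied genes, -0.16 over USP19 and USP30, which sit on the endoplasmic reticulum and mitochondria, and -0.19 over USP13 and USP14. USP14, which binds the proteasome, read 10.70, 10.77, 10.76 and 10.52 in the HOXD13 lines, against 10.93, 10.90 and 10.91 in V5 vectors, and all 4 lines lay below. In 11 of the 39 USP genes all 4 HOXD13 lines lay below the 3 vectors (20.3% of all genes tested) and in 3 above them (8.59% of all genes). The 11 are 28.2% and the 3 are 7.69%. USP51, which passed the filter only through the vectors and clone c, is among the 11.

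**Figure D2:**
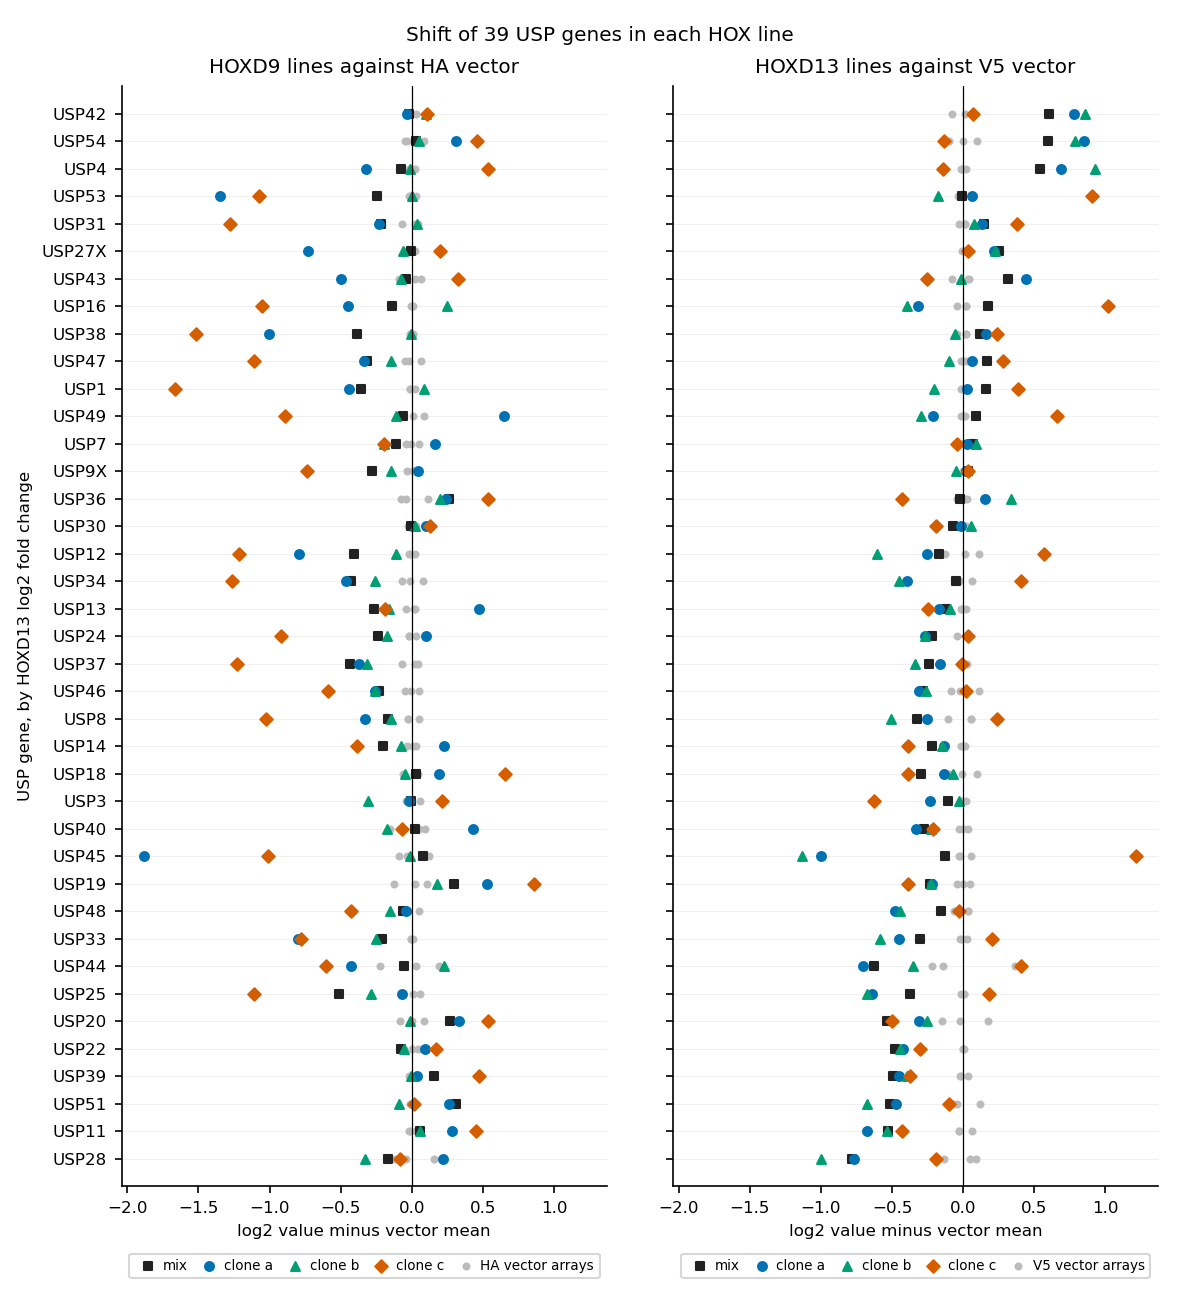
Log2 value of each of the 39 tested USP genes minus the vector mean of its tag, for the 4 HOXD9 lines (left panel) and the 4 HOXD13 lines (right panel), with the vector arrays in grey. Genes run down from the highest to the lowest HOXD13 log2 fold change, and the orange diamonds of clone c often lie away from the other lines.

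With HOXD9, 0 of the 39 USP genes were called, where 0.00967% of all genes tested were, and 9 had an unadjusted p under 0.05 by limma (23.1%, against 23.5% of all genes), 8 of them lower (20.5%, against 10.5% of all genes). Without the 3 arrays 6 USP genes were called, all lower (15.4%, against 8.23% of all genes). The median log2 fold change was -0.11 over the USP genes and 0.08 over all genes. The USP median was -0.20 without HOXD9 clone a and -0.18 with the mean of each gene's probe sets. In the fit to all arrays 26 USP genes had a value below 0 (66.7%, against 41.3% of all genes). In 9 genes (23.1%) all 4 HOXD9 lines lay below the HA vectors, against 14.2% of all genes, and in 3 (7.69%) all lines lay above them, against 22.4%. These shares and medians include USP44 and USP51, which lay under a log2 value of 5 on every array of the HA set. Both passed the filter only through the V5 vectors and HOXD13 clone c.

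The lowest HOXD9 values belonged to genes that varied much between lines. USP38, which acts in innate immune signalling, read 7.82, 7.20, 8.21 and 6.69 in the mix and then in the clones a, b and c of HOXD9, with 8.20, 8.22 and 8.21 as the HA vector values (-0.73, SE 0.26, adjusted p = 0.158). Clone b matched the vectors and the other lines lay lower. USP45, which acts on the repair nuclease ERCC1, read 6.01, 4.04, 5.91 and 4.91, against 6.05, 5.89 and 5.84 in HA vectors (-0.71, SE 0.53, adjusted p = 0.386). Only clones a and c were low in USP45, and without these clones and HOXD13 clone c its log2 fold change was 0.035. USP1 read 11.71, 11.63, 12.15 and 10.40, against 12.05, 12.09 and 12.06 in HA vectors (-0.59, adjusted p = 0.236), with clone b slightly above the vectors.

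USP53, a protein of tight junctions, read 6.66, 5.55, 6.90 and 5.83 in the HOXD9 lines, against 6.88, 6.93 and 6.89 in the HA vectors (-0.67, adjusted p = 0.210). One of its probe sets, the dimmest of those that passed, had the opposite sign (0.16). USP12, which acts with WDR48 and WDR20, read 6.65, 6.26, 6.94 and 5.84, against 7.04, 7.08 and 7.04 in HA vectors (-0.63, adjusted p = 0.186). USP34, a deubiquitinase of axin in WNT signalling, read 7.88, 7.84, 8.05 and 7.05, against 8.29, 8.24 and 8.39 in HA vectors (-0.60, adjusted p = 0.167). A USP34 probe set of similar level (mean 7.74 in the HOXD9 lines, against 7.70) gave only -0.11, and 2 dimmer ones -0.42 and -0.78. In USP12 and USP34 all 4 lines lay below the vectors, as they did in USP8, USP25, USP33, USP37, USP46, USP47 and USP48.

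Among these, the cell cycle member USP37, which acts on cyclin A, read 8.80, 8.87, 8.92 and 8.01 in the HOXD9 lines, against 9.28, 9.16 and 9.26 in the HA vectors (-0.59, SE 0.18, adjusted p = 0.147). USP46, the relative of USP12, read 7.78, 7.75, 7.75 and 7.42, against 8.002, 8.06 and 7.96 in HA vectors (-0.33, SE 0.12, adjusted p = 0.154). Clone c was the lowest line in each of the pair. A dimmer passing probe set of USP46 read -0.73 with HOXD9 (adjusted p = 0.174 by limma over probe sets).

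In 3 USP genes, USP19, USP36 and USP11, all values lay above the HA vectors in every HOXD9 line. USP19, an endoplasmic reticulum protease, read 7.80, 8.03, 7.68 and 8.36 in the HOXD9 lines, against 7.60, 7.37 and 7.52 in the HA vectors (0.47, SE 0.14, adjusted p = 0.147). USP36, the nucleolar protease of ribosome biogenesis and MYC, read 8.50, 8.47, 8.43 and 8.77, against 8.19, 8.15 and 8.35 in HA vectors (0.31, SE 0.16, adjusted p = 0.234), with all 4 of its passing probe sets above 0. USP11 read 11.84, 12.07, 11.84 and 12.24, against 11.78, 11.81 and 11.77 in HA vectors (0.21, SE 0.11, adjusted p = 0.247). Clone c was the highest line in all of them.

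Among the 6 highest HOXD9 values were also USP20 (0.28, adjusted p = 0.222), USP54 (0.21, adjusted p = 0.478) and USP18 (0.21, adjusted p = 0.376), in which not every line lay above the HA vectors. USP18 read 7.24, 7.41, 7.17 and 7.87 in the HOXD9 lines, against 7.26, 7.16 and 7.23 in the HA vectors. Without HOXD9 clones a and c and HOXD13 clone c its value was -0.012.

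Several of these HOXD9 values, none of them called, shrank by over 1.5 times in other settings. With the ACTB difference as a covariate USP45 was at -0.12, USP53 at -0.36, USP12 at -0.39, USP36 at 0.19, USP18 at 0.14 and USP54 at 0.023. Without HOXD9 clone c USP1 was at -0.24, USP38 at -0.46, USP34 at -0.38, USP11 at 0.13, USP54 at 0.13 and USP18 at 0.057. Without HOXD9 clone a USP45 was at -0.31 and USP53 at -0.44. USP53 was at -0.38 with the mean of its probe sets, and USP11 at 0.076 with the length trend removed.

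By role the HOXD9 medians were -0.24 over 8 genes of DNA damage and p53, -0.33 over 9 of endosomes, receptors and signalling, -0.10 over 7 of histones and chromatin, -0.50 over 3 of innate immunity and -0.07 over 5 less studied genes. They were 0.17 over the 3 genes of nucleolus, splicing and cell cycle and 0.26 over USP19 and USP30.

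**Figure D3:**
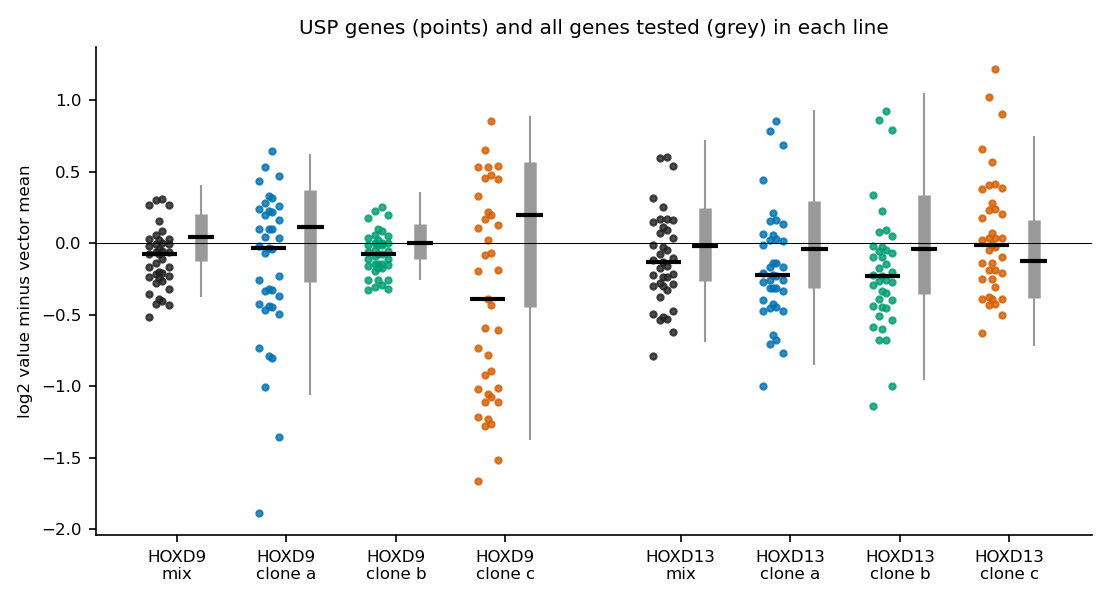
Log2 value minus vector mean for the 39 USP genes (points, median as a bar) and for all genes tested (grey, thick bar for the 25th to 75th and thin bar for the 5th to 95th percentile, median in black) in each HOX line. The USP median lies below that of all genes in every line but HOXD13 clone c, and furthest below it in HOXD9 clone c.

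The lines differed in how far the USP genes lay from the vectors. The USP median was -0.39 in HOXD9 clone c, -0.08 in clone b, -0.04 in clone a and -0.07 in the mix, where the medians of all genes tested were 0.20, 0.0036, 0.11 and 0.04. In clone c 18 USP genes (46.2%, against 23.5% of all genes) lay at least 0.5 log2 units below the vector mean and 5 (12.8%, against 29.9%) at least 0.5 above it. In clone a 6 lay that far below (15.4%, against 16.2% of all genes) and 2, USP19 and USP49, that far above (5.13%, against 12.9%). In clone b 0 USP genes lay that far from the vectors on either side, where 0.3% of all genes lay below and 1.9% above. In the mix USP25 alone lay that far below (2.56%, against 1.25%) and 0 USP genes above (2.07% of all genes).

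In the HOXD13 lines the USP medians were -0.01 in clone c, -0.23 in clone b, -0.22 in clone a and -0.13 in the mix, where those of all genes were -0.13, -0.04, -0.04 and -0.02. At least 0.5 below the vector mean lay 8 USP genes in clone b (20.5%, against 17.9% of all genes), 5 in the mix (12.8%, against 10.7%), 5 in clone a (12.8%, against 14.8%) and 2 in clone c (5.13%, against 16.1%). At least 0.5 above the vector mean lay USP4, USP42 and USP54 in each of the mix and clones a and b (7.69% of the USP genes, against 11.2%, 15.4% and 18% of all genes), and USP12, USP16, USP45, USP49 and USP53 in clone c (12.8%, against 10%). USP16, a histone H2A protease, read 9.82, 9.34, 9.26 and 10.67 in the HOXD13 lines, against 9.68, 9.67 and 9.61 in the V5 vectors. USP45 read 6.89, 6.02, 5.88 and 8.24, against 6.996, 7.07 and 6.99 in V5 vectors. In USP45 clone c lay above the vectors and the other 3 lines below them.

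The shifts of the USP genes in HOXD9 clone c and HOXD13 clone c ran opposite to each other. Across the 39 genes Pearson's r was -0.752 and Spearman's rho -0.815, and across all 10344 genes tested they were -0.680 and -0.769, so the USP genes followed the rest of the array. The clones have different vectors and were normalized in different sets, and genes on 1 array share its RNA and are no independent replicates. The ACTB difference was 2.10 in HOXD9 clone c and 2.80 in HOXD13 clone c, on either side of the vectors' 2.19 to 2.37. Its part in the pattern was not tested. HOXD13 clone c also ran opposite to HOXD9 clone a (r -0.690, rho -0.659) and to the HOXD9 mix (r -0.412, rho -0.532) across the USP genes, and gave r of 0.140 with HOXD9 clone b. Across all genes tested these r values were -0.489, -0.443 and -0.042. HOXD9 clone c gave r of 0.366 with HOXD13 clone b, 0.198 with clone a and -0.063 with the mix across the USP genes. Across all genes tested these were 0.395, 0.273 and 0.107.

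**Figure D4:**
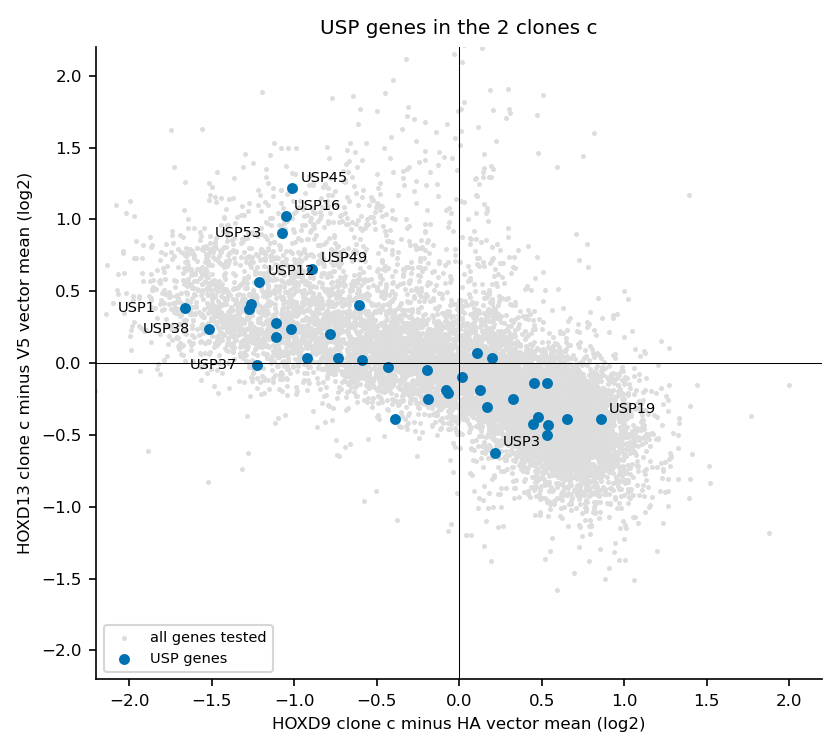
Shift of each USP gene (blue) and of all genes tested (grey) in HOXD9 clone c (x axis) and in HOXD13 clone c (y axis), each as log2 value minus its vector mean; genes beyond the axes are not drawn. USP1, USP38, USP16, USP45 and USP53 lie low on the x axis and above 0 on the y axis.

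USP genes are long, and shift went with gene length in some lines. The median genomic length was 77.7 kb over the 39 USP genes and 32.9 kb over all genes tested (GRCh38.p14). Spearman's rho of shift with length across the USP genes was -0.574 in HOXD9 clone b, -0.517 in the mix, -0.406 in clone c and -0.032 in clone a, against -0.316, -0.366, -0.341 and -0.243 across all genes. In the HOXD13 lines it was 0.261 in clone c, -0.034 in clone b, 0.036 in clone a and 0.184 in the mix across the USP genes, against 0.267, -0.246, -0.210 and -0.152 across all genes, so the sign differed in clone a and the mix. The part of length in any shift was not tested beyond this. With the trend of each array with length removed, the HOXD9 median of the USP genes was -0.09, where that of all genes was 0.03, and the HOXD13 median was -0.10, where that of all genes was 0.0071.

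The effects of HOXD13 and HOXD9 differed in 5 USP genes, 12.8% of the 39 where 9.64% of all genes tested were called. In each the HOXD13 effect was the lower one, as in 8.12% of all genes, while 0 USP genes and 1.52% of all genes had the higher one. At an unadjusted p under 0.05 there were 10 USP genes (25.6%, against 26.5%), and 16 had a difference below 0 (41%, against 53.3%). The difference in log2 fold change was -0.75 for USP11 (SE 0.16, adjusted p = 0.0117 by limma), -0.73 for USP19 (SE 0.20, adjusted p = 0.0361), -0.68 for USP20 (SE 0.19, adjusted p = 0.0401), -0.59 for USP39 (SE 0.16, adjusted p = 0.0326) and -0.45 for USP22 (SE 0.13, adjusted p = 0.0452). USP11 kept the call in every alternative tried. The others lost it without any 1 vector array of either tag, among other settings (adjusted p up to 0.127).

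USP19 and USP20 were called in neither HOX comparison alone. USP19 read 8.23, 8.25, 8.24 and 8.08 in the HOXD13 lines, against 8.43, 8.46 and 8.51 in the V5 vectors, and its HOXD9 lines, given above, lay over the HA vectors. USP20 read 5.44, 5.51, 5.16 and 5.71 in the HOXD9 lines, against 5.26, 5.18 and 5.09 in the HA vectors, so that clone b lay within their range. Both effects of a gene are taken within their own set, so the different scales of the sets enter this difference.

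**Figure D5:**
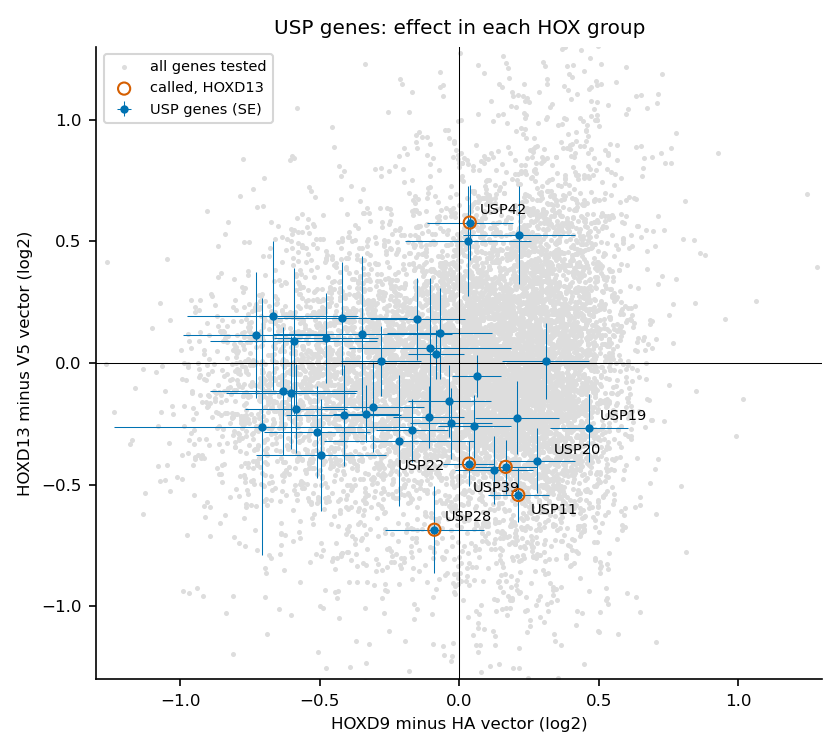
Log2 fold change of HOXD9 against HA vector (x axis) and of HOXD13 against V5 vector (y axis) for the 39 USP genes with the SE of each (blue) and for all genes tested (grey); genes beyond the axes are not drawn. USP11, USP19, USP20, USP22 and USP39 lie right of 0 and below 0, and the 5 genes called for HOXD13 are circled.

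Related USP genes were set side by side. USP25 and USP28 had HOXD13 log2 fold changes of -0.38 (adjusted p = 0.320) and -0.69, and HOXD9 values of -0.50 and -0.09. USP20 and USP33 had HOXD9 values of 0.28 and -0.51 (adjusted p = 0.162) and HOXD13 values of -0.40 and -0.28. USP36 and USP42 had HOXD13 values of 0.01 (adjusted p = 0.983) and 0.58. Dimmer passing probe sets of USP25, USP33 and USP36 gave other values, none of them called. That of USP25 read -0.998 with HOXD13 and -0.90 with HOXD9, and that of USP33 -0.19 with HOXD9 and -0.003 with HOXD13. Those of USP36 read 0.45, -0.15 and 0.16 with HOXD13. The order of USP25 and USP28 with HOXD13 thus depends on the probe set. In the other comparisons given for these pairs the order was the same on every passing probe set. No difference between relatives was tested.

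Where a USP gene had several passing probe sets, as 27 did, all lay on 1 side of 0 in 23 genes with HOXD9 and in 20 with HOXD13. Those on both sides included USP7 (-0.08, 0.22 and 0.09 with HOXD9), USP3 (-0.03 and 0.30 with HOXD9), USP13 (-0.16, -0.25 and 0.06 with HOXD13), USP34 (-0.12, 0.16, -0.10 and 0.42 with HOXD13) and USP48 (-0.28, -0.02 and 0.07 with HOXD13). USP9X, USP31, USP36 and USP47 also had HOXD13 probe sets on both sides of 0. None of these reached the threshold on any probe set, so their direction is uncertain. USP11, USP19, USP20, USP22 and USP39 rest on 1 passing probe set each.

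The 6 USP genes under the filter were USP2, USP5, USP26, USP29, USP35 and USP9Y. USP5, which recycles free ubiquitin chains, read 4.52, 4.60, 4.28 and 5.21 in the HOXD9 lines, against 4.30, 4.35 and 4.29 in the HA vectors, on its dim probe set. USP26 and USP29, known from testis and embryo, stood near the floor of the array, at or below 2.34 on every array.

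Other genes of the ubiquitin system were counted in the same way, where 10.6% of all genes tested were called with HOXD13 (2.88% higher and 7.76% lower), and with lists this short their counts are not set apart from that share. Of 31 tested deubiquitinases outside the USP symbols 1 rose and 1 fell with HOXD13 and 29 did not pass, with a median of 0.03, and 0 were called with HOXD9 (median -0.17). USPL1, a SUMO protease with a USP fold, rose by 0.56 (adjusted p = 0.0437), and COPS5, the metalloprotease of the COP9 signalosome, fell by 0.43 (adjusted p = 0.0355). UBA1, the main ubiquitin-activating enzyme, fell by 0.47 (adjusted p = 0.0161), the 1 call among 3 tested ubiquitin and E1 genes. Of 11 USP partners WDR20, which binds USP12 and USP46, rose by 0.61 (adjusted p = 0.0479) and 10 did not pass. WDR48 had a value of -0.17 (adjusted p = 0.322). Of the 12 tested OTU deubiquitinases 0 were called with HOXD13, with a median of 0.32, and the largest values belonged to YOD1 (0.64, adjusted p = 0.192), OTUD3 (0.52, adjusted p = 0.0938) and ZRANB1 (0.49, adjusted p = 0.0506). The HOXD13 and HOXD9 effects differed in USPL1 (0.83, adjusted p = 0.0381 by limma), in UBA1 (-0.73, adjusted p = 0.0118) and in HGS, a partner of USP8 on endosomes (-0.68, adjusted p = 0.0314).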

How the data were processed

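The deposited values are GCRMA expression values, per the submitters' processing notes, on a log2 scale, 1 per probe set of an Affymetrix array. GCRMA corrects background by probe sequence, so dim probe sets gather near a log2 value of about 2 and their fold changes depend on the background model. Sorted values of the 7 arrays of a tag set were equal to within 0.00102 (HA) and 0.00195 (V5), with 75th percentiles of 6.27 and 7.02, so the sets were normalized separately. For GCRMA, a version was not given in the sources used here, nor was a genome build. Of 54675 probe sets 41097 had 1 gene symbol in the platform annotation, 1801 had several and 11777 had none listed, and 41043 were matched to RefSeq.

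A model of 4 group means over the 14 arrays was fitted with limma 3.58.1 in R 4.3.3 (10 residual and 3.01 prior degrees of freedom), tests were two-sided, and p-values were adjusted by Benjamini-Hochberg over 10344 genes and called under 0.05. Each p in the text is from limma. Plots were made in Python 3.11.15 (matplotlib 3.10.9). The code was tested on simulated data. Alternatives were 2 other filters, the mean of probe sets, centring, the 7 arrays of 1 tag, 1 variance per group, a prior with a trend, the ACTB covariate, removal of the length trend, and each array left out.

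The members and gene lists were chosen with earlier results of these data known, and 1 gene with a symbol of this form is not reported here. Named were USP genes called, the 6 largest rises and 6 largest falls for each HOX gene, those with probe sets on both sides of 0, and called members or the 3 largest changes of other lists; other genes were added after their values were seen. The number of arrays limits the precision. The vector arrays varied less than the HOX lines: the median SD of the USP genes was 0.33 in HOXD9 lines, 0.05 in HA vectors, 0.22 in HOXD13 lines and 0.04 in V5 vectors.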

Additional observations from a re-analysis of the deposited data

Results flagged for a closer look

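In 6 of 78 combinations of a USP gene and a HOX group, 1 line stood apart from the other lines of its group by Dixon's criterion, where chance alone would give about 1 in 20. Clone c was that line in 5 of them. The criterion was applied to the USP genes only, so the share over all genes is not known. The combinations also share the same arrays, so the 1 in 20 is only a rough guide. In the HOXD9 lines USP37 was low in clone c at 8.01 and USP46 at 7.42, and USP13 was high in clone a at 8.48. In the HOXD13 lines USP24 was high in clone c at 10.69 and USP46 at 8.85, and USP19 was low in clone c at 8.08. None of these values belongs to a gene called in the comparison of its own HOX gene.

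In 5 USP genes the HOXD13 effect differed from the HOXD9 effect by limma. The HOXD13 minus HOXD9 difference in log2 fold change was -0.75 in USP11, -0.73 in USP19, -0.68 in USP20, -0.45 in USP22 and -0.59 in USP39. USP11, USP22 and USP39 were also called for HOXD13 alone, with HOXD9 values of 0.21, 0.035 and 0.17 that did not pass.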

How the results depend on the processing

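No paired analysis was possible because the labels number only the vector arrays, which are not compared with each other. Without HOXD9 clones a and c and HOXD13 clone c, chosen after seeing the data because they stood apart, 6 USP genes were called for HOXD9, 25 for HOXD13 and 13 for the difference, where 8.23%, 64.8% and 45.2% of all genes were. With HOXD13 clone c alone left out the counts were 3, 11 and 9 (10.6%, 35.8% and 22.2% of all genes). Leaving out 1 array at a time gave 0 to 3 for HOXD9, 0 to 11 for HOXD13 and 1 to 9 for the difference. Over all genes the share called then ran from 0% to 10.6%, from 2.93% to 35.8% and from 3.71% to 22.2%. Without HOXD9 clone b, 3 were called for HOXD9 (7.69%, against 8.51% of all genes). Without V5 vector 3, 0 were called for HOXD13 by limma (2.93% of all genes). With no filter 3 were called for HOXD13 and 3 for the difference (6.67% each, against 4.57% and 4.24% of all genes). For HOXD13 the arrays of the V5 tag alone gave 3 (7.69%, against 8.6% of all genes) and the ACTB covariate 8 (20.5%, against 25.1%). For the difference centring gave 3 (7.69%, against 8.35%) and removal of the length trend 2 (5.13%, against 8.73%). The 5 genes called for HOXD13 kept their direction in all settings. Signs turned in 3 uncalled values: USP18 with HOXD9 (-0.012) and USP45 with HOXD9 (0.035) without the 3 arrays, and USP53 with HOXD13 (-0.042) without clone c or the 3 arrays, with 0.32 as its highest value when 1 array was left out. The cause was not tested. Values under about 5 are limited by the background of the array.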
